A study of Mus musculus with 6 samples.

Results

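The 44 genes described here encode the main cytosolic and mitochondrial protein-folding machinery: heat shock proteins and their cochaperones, the chaperonin CCT, and prefoldin. They were listed by gene symbol, with earlier results of these data known, and all 44 were found among the 16140 genes of the deposited table. All 44 also had enough counts to be tested, as did 12173 genes in all. The study compared livers of Selofl/fl Alb-Cre mice, in which Cre recombinase under the albumin promoter removes the floxed Selenoo gene in hepatocytes, with livers of Selofl/fl mice without Cre, all on a normal diet. There were 3 knockout and 3 control libraries of poly(A)-selected RNA. Both groups carry the floxed alleles and the controls have no Cre, so an effect of Cre and loss of Selenoo cannot be told apart; the other cells of the liver keep the gene. The sources used here give no strain, sex or age. Nothing in the labels states that the 6 libraries are 6 animals, so a p-value here refers to the spread among libraries, part of which may be technical.

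As background, many unfolded protein chains in the cytosol are bound by Hsp70, which holds and releases them in a cycle driven by ATP. J-domain proteins bring the client and stimulate the ATPase, and exchange factors such as the Hsp110 proteins and Bag3 reset it. Clients that need more help, kinases and steroid receptors among them, pass to Hsp90 with its own cochaperones, while actin and tubulin are carried by prefoldin to the closed chamber of CCT. The transcription factor Hsf1 switches on many of these genes when unfolded proteins accumulate, by binding heat shock elements, which are alternating GAA and TTC repeats.

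Promoter sequences were taken from RefSeq (GRCm38.p6), which held 36 of the 44 genes. The 250 bases before each start were searched on both strands for a heat shock element of 3 repeats (GAA, TTC and GAA, or TTC, GAA and TTC, with 2 bases of any kind between neighbours) and for the shorter forms of 2 repeats, GAANNTTC and TTCNNGAA, which also lie within the longer one. The longer element was found in 3 of the 36 genes (8.33%), against 0.514% of 27025 genes with a promoter in the table. A shorter form was found in 14 of the 36 (38.9%), against 14.5% of all genes. A gene counted once if any of its listed starts had a match. The stretches below are shown because they hold the longer elements of Dnajb6, Hspe1 and Hspd1 and the shorter forms of Hsph1, the called gene, and Hspb1; capitals mark the matched repeats.
Hsph1: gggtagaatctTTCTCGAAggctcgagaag
Dnajb6: agctccgaGAATCTTCCGGAAcgctagacc
Hspe1: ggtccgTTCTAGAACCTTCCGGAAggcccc
Hspd1: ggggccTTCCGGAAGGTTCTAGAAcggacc
Hspb1: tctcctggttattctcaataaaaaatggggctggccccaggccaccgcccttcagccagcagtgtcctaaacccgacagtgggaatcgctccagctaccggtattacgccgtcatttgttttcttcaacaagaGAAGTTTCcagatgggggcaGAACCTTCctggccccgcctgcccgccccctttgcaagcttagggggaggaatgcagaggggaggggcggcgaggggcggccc
The Hsph1 stretch is chr5:149636351-149636380 on the minus strand. It lies 44 to 15 bases before the most upstream RefSeq start of Hsph1, but inside the deposited gene span, which runs to 149636498. The Dnajb6 stretch is chr5:29735844-29735873 and the Hspb1 stretch chr5:135887669-135887904, both on the plus strand. Hspe1 and Hspd1 lie head to head and share 1 stretch, so the 3 genes with the longer element have 2 separate places between them. Both lines are chr1:55088053-55088082, read on the plus strand for Hspe1 and on the minus strand for Hspd1. For Hspd1 the stretch lies before only the downstream of 2 listed starts. No match was found before the upstream one. The stretch is inside the deposited span of Hspd1, which runs to 55088243. A match is a run of letters and not a measured site, and the absence of a match says only that these letters were not in the window.

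As a check of the labels, Selenoo had 117, 163 and 135 counts in the knockout libraries, against 1413, 1630 and 1852 in the control libraries, which left 8.46% of the control level. Library totals ran from 15550287 to 18680196 estimated counts. The hepatocyte markers Alb, Apoa1 and Ttr were abundant in every library, and the 6 hepatocyte markers summed to between 117876 and 138158 TPM in knockout and between 122889 and 148633 TPM in control livers. Markers of other cells summed to far less, but not all were scarce. The stellate gene Dcn was at 137, the endothelial gene Clec4g at 103 and the Kupffer gene Cd5l at 63.9 TPM over all libraries. T and NK cell markers summed to between 9.88 and 16.3 TPM in knockout and between 19 and 45.9 TPM in control livers, and B and plasma cell markers to between 5.11 and 8.0 TPM in knockout and between 10.8 and 24.3 TPM in control livers. The B and plasma cell gene Jchain and the sinusoidal endothelial gene Lyve1 were called lower in edgeR's test, and the sums of Kupffer, stellate, bile duct and neutrophil markers were 146 to 181, 277 to 343, 31.8 to 41.1 and 3.42 to 6.26 TPM in knockout and 122 to 231, 262 to 400, 20.3 to 45.4 and 7.0 to 13.8 TPM in control livers. Endothelial markers summed to 136 to 153 TPM in knockout and 160 to 165 TPM in control livers. The part of these cells in the levels of the 44 genes was not tested. In bulk tissue, fewer cells of a type and less RNA per cell cannot be told apart. Libraries differed in how counts ran with transcript length, most toward short transcripts in control replicate 1. Spearman's rho between a gene's deviation in that library and its effective length was -0.37 across 9947 genes, against 0.34, 0.11 and 0.11 in the knockout replicates, and -0.27 and 0.33 in control replicates 2 and 3. These correlations run over genes, which are not independent.

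Taken as one pool, the 44 genes made up a smaller part of the messenger RNA in knockout livers. They summed to 3903, 3692 and 3639 TPM in the knockout libraries, against 4580, 4807 and 4671 TPM in the control libraries, and the groups did not overlap. Much of that gap was Hspa8, which held 23.7% to 25.4% of the pool in knockout and 28.7% to 39.6% in control livers. Without Hspa8 the sums were 2980, 2756 and 2719 TPM in knockout and 2768, 3427 and 3307 TPM in control livers, and the groups overlapped at control replicate 1.

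In the comparison of knockout with control livers, edgeR's quasi-likelihood test called 1 of the 44 genes at an adjusted p under 0.05 (2.27%), against 1.49% of all tested genes, a share near the background. That gene, Hsph1, was lower; 0.715% of all tested genes were called lower and 0.772% higher. Most fold changes of the set pointed the same way. Fold changes were negative for 33 of the 44 genes (75.0%), against 52.2% of all tested genes, and the median log2 fold change was -0.18, against -0.018 over all tested genes. All 3 knockout libraries lay below all 3 control libraries for 17 genes (38.6%), against 11.9% of all tested genes, and above them for 3 genes (6.82%), against 13.3%. An unadjusted p under 0.05 was reached by 12 genes with a negative fold change (27.3%), against 9.26% of all tested genes. It was reached by 2 with a positive one (4.55%), against 9.27%. The 44 genes were measured in the same libraries and are not independent, so these shares are descriptions and not separate pieces of evidence.

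The number of calls depended on the test and on single libraries. DESeq2's Wald test called 8 of the 44 (18.2%), against 5.26% of all genes it tested: Hspa8, Hsph1, Hsp90aa1, Stip1, Ahsa1 and Hspb1 lower, against 2.18% of genes called lower, and Dnaja2 and Dnajb6 higher, against 3.08%. In the authors' deposited table, 5 of the 44 had a q value under 0.05 and were lower, Hspa8, Hsph1, Hsp90aa1, Stip1 and Ahsa1, against 1.44% of its genes, and Dnaja2 and Dnajb6 were higher, against 2.03%. Without control replicate 3, edgeR called 7 of the 44 (15.9%), against 5.42% of the genes tested. Without control replicate 1 it called Hsph1 and Dnajb6 (2.93% of genes tested), and without knockout replicate 1 Hsph1 alone (0.477%). It called 0 of the 44 on leaving out control replicate 2, knockout replicate 2 or knockout replicate 3, where 0.627%, 0.348% and 0.485% of all genes were called. With no filter on low counts or with each library's length trend removed it called Hsph1 and Dnajb6, against 2.05% and 2.45% of all genes. Shares of all genes were 0.715% with the replicate number as a block, 1.08% with block and length trend together, and 0.904% and 1.04% in limma's test on log2(FPKM + 1) and log2(FPKM + 0.1); none of the 44 was called in these 4 fits. The share of all genes with knockouts below controls was 16.5%, 15.2% and 16.5% without knockout replicates 1, 2 and 3, and 18.5%, 15.2% and 21.6% without control replicates 1, 2 and 3.

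**Figure D1:**
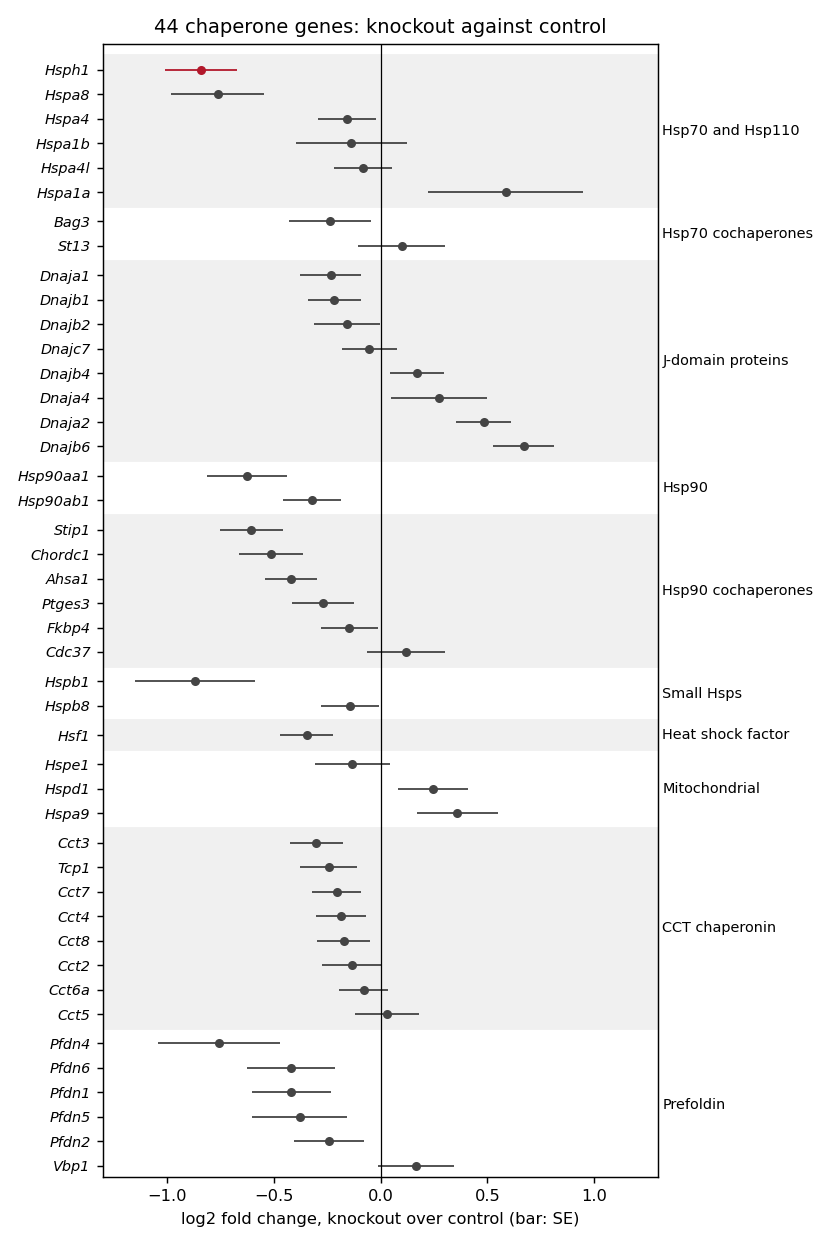
Log2 fold change of each of the 44 genes, knockout over control, from edgeR's fit, with the standard error as a bar, grouped by chaperone class. The red point is Hsph1, the gene with an adjusted p under 0.05; points left of 0 (33 of 44) are lower in knockout livers.

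The Hsp70 machine had the most abundant gene of the set and its only call. Hsph1 encodes Hsp105, an Hsp110 protein that resets Hsp70 by nucleotide exchange, and lies on chromosome 5 (149616843 to 149636498, minus strand, GRCm38). In CPM, counts scaled to library size with TMM factors, Hsph1 had 34.5, 24.0 and 24.8 in the knockout libraries and 44.4, 55.8 and 49.2 in the control libraries. All knockout libraries were below all controls, with knockout replicate 1 nearest to them. It fell by 0.84 ± 0.17 on the log2 scale (SE; edgeR adjusted p = 0.0462), just inside the threshold. Leaving out control replicate 2 gave an edgeR adjusted p of 0.164, and leaving out knockout replicate 2 or 3 gave 0.218 or 0.187.

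Hspa8 encodes Hsc70, the Hsp70 that cells make at all times. Its level was 1297, 1432 and 1417 CPM in the knockout libraries, against 3223, 1968 and 1854 CPM in the control libraries. The knockouts were close together and below every control, while control replicate 1 was far above the other controls. Its log2 fold change of -0.76 ± 0.22 (SE) had adjusted p = 0.113 in edgeR and 0.0132 in DESeq2. Without control replicate 1 it was -0.47 (edgeR adjusted p = 0.0847).

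The other members of the family were closer to even. Hspa4 and Hspa4l, the remaining Hsp110 proteins, had log2 fold changes of -0.16 ± 0.14 and -0.082 ± 0.13 (SE), and their groups overlapped. The stress-induced Hsp70 is made from Hspa1a and Hspa1b, near-identical neighbours on chromosome 17, whose reads the authors' counting divided: their deposited counts were fractions that summed to a whole number, within 0.005, in 5 of 6 libraries. Between 4.84% and 13.1% of the summed counts were assigned to Hspa1a. Summed, the genes had 29.7, 19 and 15.6 CPM in the knockout libraries, against 29.1, 21.5 and 17.4 CPM in the control libraries. The groups overlapped almost fully, and the summed log2 fold change was -0.076 ± 0.26 (SE; edgeR adjusted p = 0.893). The positive value of Hspa1a alone, 0.59 ± 0.36 on the log2 scale (SE), rests on 16.2 to 52.1 assigned counts per library.

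The cochaperones of Hsp70 had overlapping groups. Bag3, which exchanges nucleotide on Hsp70 and links it to small heat shock proteins, had 47.4, 36.5 and 43.5 CPM in knockout and 36.3, 54.8 and 59.1 CPM in control livers. St13 encodes Hip, which stabilises Hsp70 bound to its client, and had 124, 111 and 117 CPM in knockout and 74.0, 129 and 126 CPM in control livers. In both genes control replicate 1 was the lowest of all libraries. The log2 fold changes of Bag3 and St13 were -0.24 ± 0.19 and 0.099 ± 0.20 (SE), and -0.42 and -0.12 without that library.

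Among the J-domain proteins, 4 of 8 fold changes were positive and the median was 0.058 (log2). Dnajb6, which holds back aggregation of misfolded proteins, was the nearest to a call: it had 85.9, 87.4 and 92.2 CPM in the knockout libraries, against 47.6, 54.5 and 64.6 CPM in the control libraries. Every knockout was above every control. Its log2 fold change was 0.67 ± 0.14 (SE; adjusted p = 0.0563 in edgeR, just outside the threshold, and 0.00153 in DESeq2). Dnajb6 is 1 of the 3 genes with the longer heat shock element, here 46 bases before its most upstream start, as printed above. The others, Hspd1 and Hspe1, had log2 fold changes of 0.24 and -0.13 and overlapping groups. Any link between the element and these levels was not tested.

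Dnaja2, a general Hsp70 partner for refolding, had 123, 121 and 117 CPM in the knockout libraries, against 81.3, 81.5 and 95.8 CPM in the control libraries. Again the groups did not overlap, with a log2 fold change of 0.48 ± 0.13 (SE; edgeR adjusted p = 0.0996). Its relative Dnaja1, the most abundant J-domain gene per length at 67.5 TPM over all libraries, had 154, 156 and 165 CPM in knockout and 213, 182 and 163 CPM in control livers. Here control replicate 3 lay among the knockouts, and the log2 fold change of -0.23 ± 0.14 (SE) was -0.12 without control replicate 1. Dnajb1, the heat-inducible Hsp40, was lower in every knockout library, at 22.5 to 25.6 CPM, than in any control library, at 26.1 to 29.8 CPM, a log2 difference of -0.22 ± 0.12 (SE). Dnaja4, Dnajb2, Dnajb4 and Dnajc7 had overlapping groups and log2 fold changes between -0.16 and 0.27.

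Both Hsp90 genes had lower levels in all knockout libraries. Hsp90aa1, the inducible form, had 159, 150 and 155 CPM in the knockout libraries, against 305, 231 and 181 CPM in the control libraries. The knockouts were tightly grouped and the controls spread widely, with control replicate 3 nearest to them. Its log2 fold change was -0.63 ± 0.19 (SE; edgeR adjusted p = 0.128), and -0.41 without control replicate 1. Hsp90ab1, the constitutive form, had 953, 934 and 823 CPM in the knockout libraries, against 1092, 1172 and 1124 CPM in the control libraries. The step here was smaller, -0.32 ± 0.14 on the log2 scale (SE; edgeR adjusted p = 0.252), and at 559 TPM over all libraries Hsp90ab1 was 6.05 times as abundant per length as Hsp90aa1.

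Of the 6 Hsp90 cochaperones, 4 also had every knockout library below every control, against 11.9% of all tested genes. Stip1 encodes Hop, which hands clients from Hsp70 to Hsp90, and had 98.5, 79.0 and 82.9 CPM in the knockout libraries, against 126, 149 and 121 CPM in the control libraries. The groups did not overlap; the log2 fold change was -0.61 ± 0.15 (SE; adjusted p = 0.0774 in edgeR and 0.00686 in DESeq2). Ahsa1, the activator of the Hsp90 ATPase and the most abundant of these genes per length (108 TPM), had 82.3, 79.8 and 79.9 CPM in knockout and 112, 112 and 99.5 CPM in control livers. Its log2 fold change was -0.42 ± 0.12 (SE; edgeR adjusted p = 0.117).

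Chordc1, which binds Hsp90 through CHORD domains, had a log2 fold change of -0.52 ± 0.15 (SE), and Ptges3, the p23 cochaperone that stabilises the closed Hsp90 dimer, of -0.27 ± 0.15 (SE). In both, all knockout libraries were below all controls. Without control replicate 1 Chordc1 was at -0.37 and Ptges3 at -0.11. Fkbp4, the immunophilin of steroid receptor complexes, and Cdc37, which loads kinases onto Hsp90, had log2 fold changes of -0.15 ± 0.13 and 0.12 ± 0.18 (SE), and overlapping groups. Cdc37 had 101 to 107 CPM in the knockouts, and 69.5 CPM in control replicate 1 against 114 and 104 CPM in the other controls; without that library its log2 fold change was -0.064.

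**Figure D2:**
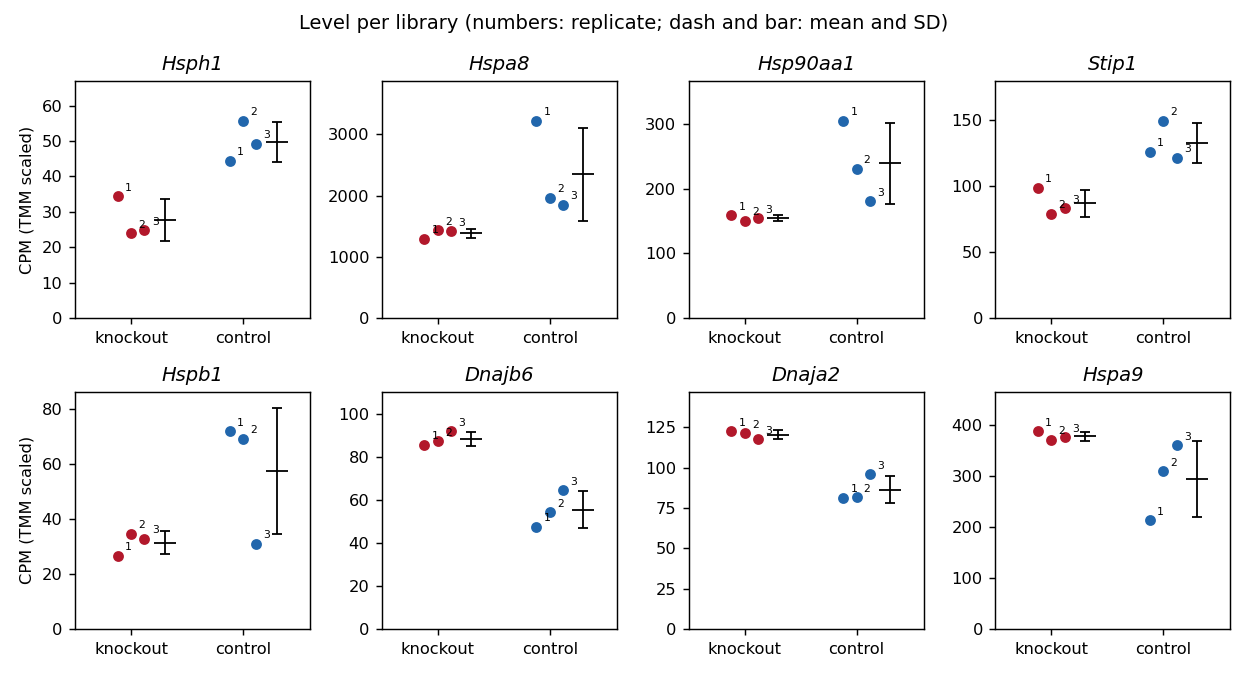
Level in CPM, scaled by TMM factors, of 8 genes in each library, with the knockout group on the left and the control group on the right of each panel; the dash and bar are the mean and SD of 3 libraries. The groups do not overlap in any panel but that of Hspb1, where control replicate 3 (31.0 CPM) lies among the knockouts (26.7 to 34.7 CPM). The 8 genes were picked and do not stand for the set. Of the 44 genes, 38.6% were lower and 6.82% higher without overlap, against 11.9% and 13.3% of all tested genes.

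Hspb1, a small heat shock protein that binds unfolding clients and actin filaments, had a wide spread among its controls. Its levels were 26.7, 34.7 and 32.8 CPM in the knockout libraries, against 71.9, 69.2 and 31.0 CPM in the control libraries. Control replicate 3 matched the knockouts, and the other controls were about alike. The log2 fold change was -0.87 ± 0.28 (SE; edgeR adjusted p = 0.152), and without control replicate 3 it was -1.17 (edgeR adjusted p = 0.00925). Hspb1 is a short transcript, with an effective length of 649 bases, and its log2 fold change was -0.70 with each library's length trend removed and -0.67 without control replicate 1. Hspb8, which works with Bag3, had 166, 155 and 156 CPM in knockout and 155, 187 and 187 CPM in control livers, and its groups overlapped at control replicate 1; its log2 fold change of -0.14 ± 0.13 (SE) was -0.23 without that library.

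Hsf1, the factor that turns on heat shock genes, had 18.4, 18.6 and 17.8 CPM in the knockout libraries, against 25.6, 23.0 and 21.2 CPM in the control libraries. The groups did not overlap, and the log2 fold change was -0.35 ± 0.13 (SE; edgeR adjusted p = 0.192). The messenger RNA level of Hsf1 is not a measure of the factor's activity, which depends on its assembly and modification.

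Of the 3 mitochondrial chaperones, 2 had positive fold changes. Hspa9, the mitochondrial Hsp70 that pulls proteins through the inner membrane, had 388, 371 and 376 CPM in the knockout libraries, against 214, 310 and 361 CPM in the control libraries. The knockouts were above every control, by little in the case of control replicate 3, and the log2 fold change was 0.36 ± 0.19 (SE; edgeR adjusted p = 0.344), and 0.18 without control replicate 1. Hspd1 and Hspe1 form the Hsp60 folding chamber and its Hsp10 lid. Hspd1 had 261, 283 and 274 CPM in knockout and 187, 228 and 275 CPM in control livers. Hspe1 had 54.8, 73.3 and 74.3 CPM in knockout and 87.1, 73.3 and 61.5 CPM in control livers.

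Hspd1 and Hspe1 share the heat shock element printed above, which lies before only the downstream of 2 listed Hspd1 starts. Their log2 fold changes were 0.24 ± 0.16 and -0.13 ± 0.17 (SE), and the control library with the most Hspd1 had the least Hspe1. Without control replicate 1 Hspd1 was at 0.12, and without control replicate 3 at 0.40. Per length both were at a like level, at 150 and 168 TPM over all libraries, as was Hspa9 at 151 TPM. Hspe1 is a short transcript, with an effective length of 514 bases, and its sign turned to 0.026 when each library's trend on length was removed.

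The 8 CCT subunits form a double ring in which each subunit has its own place. Their genes were at near levels: over all libraries the highest, Cct5 at 80.2 TPM, was 1.96 times the lowest, Cct3 at 41.0 TPM, and within single libraries the ratio of the highest to the lowest subunit ran from 2.17 to 2.28 in knockout and from 1.78 to 2.04 in control livers. Fold changes were small and mostly negative, with 7 of 8 below 0, against 52.2% of all tested genes, and a median of -0.18 (log2). The knockout libraries lay below all controls in 6 of the 8, Tcp1, Cct3, Cct4, Cct6a, Cct7 and Cct8, against 11.9% of all tested genes. At the adjusted threshold 0 of the 8 passed in edgeR, DESeq2 or any other test run, and 1 of 8 had an unadjusted p under 0.05 with a negative value in edgeR's test, against 9.26% of all tested genes.

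Cct3 had the smallest p, with 53.3, 47.9 and 49.9 CPM in the knockout libraries against 58.0, 68.4 and 59.8 CPM in the control libraries. Its groups did not overlap, and the log2 fold change was -0.30 ± 0.12 (SE; edgeR adjusted p = 0.237). Cct7 had an even step, with 66.1, 70.3 and 70.1 CPM in knockout and 78.9, 78.1 and 81.4 CPM in control livers. Cct5 was the exception, at 110, 105 and 105 CPM in knockout and 85.2, 119 and 109 CPM in control livers, with a log2 fold change of 0.029 ± 0.15 (SE) that became -0.097 without the low control replicate 1.

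Prefoldin, the jaw-shaped complex of 6 different subunits, had a lower median, -0.40 (log2), with 5 of 6 values negative, and wider spread. Its genes were far from even in level, at 225 TPM for Pfdn5 and 5.01 TPM for Vbp1 over all libraries, a ratio of 44.9. Pfdn4 had the smallest p: its levels were 3.12, 3.09 and 3.47 CPM in knockout and 8.25, 4.29 and 3.99 CPM in control livers, from 54 to 123 counts per library. The log2 fold change was -0.76 ± 0.28 (SE; edgeR adjusted p = 0.203), and -0.36 without control replicate 1. Pfdn5 had 61.0, 69.5 and 75.3 CPM in knockout and 123, 81.2 and 64.2 CPM in control livers, and its groups overlapped; its log2 fold change of -0.38 ± 0.22 (SE) was -0.082 without control replicate 1.

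In Pfdn1, Pfdn2, Pfdn4, Pfdn5 and Pfdn6 control replicate 1 was the highest library, and in 4 of these 5 the groups overlapped at control replicate 3. All of these but Pfdn2 have an effective length under 1000 bases. Over the set, control replicate 1 was above the mean of the other controls in 6 of 6 genes under 1000 bases (median log2 ratio of 0.63). It was above that mean in 18 of 37 longer genes (median of -0.015). The 6 short genes are Hspb1, Hspe1, Pfdn1, Pfdn4, Pfdn5 and Pfdn6, so short length and prefoldin largely coincide here, and the cause was not tested. Without control replicate 1 the prefoldin median was -0.12, and with each library's length trend removed it was -0.20. The CCT median was -0.13 and -0.16 under the same changes.

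**Figure D3:**
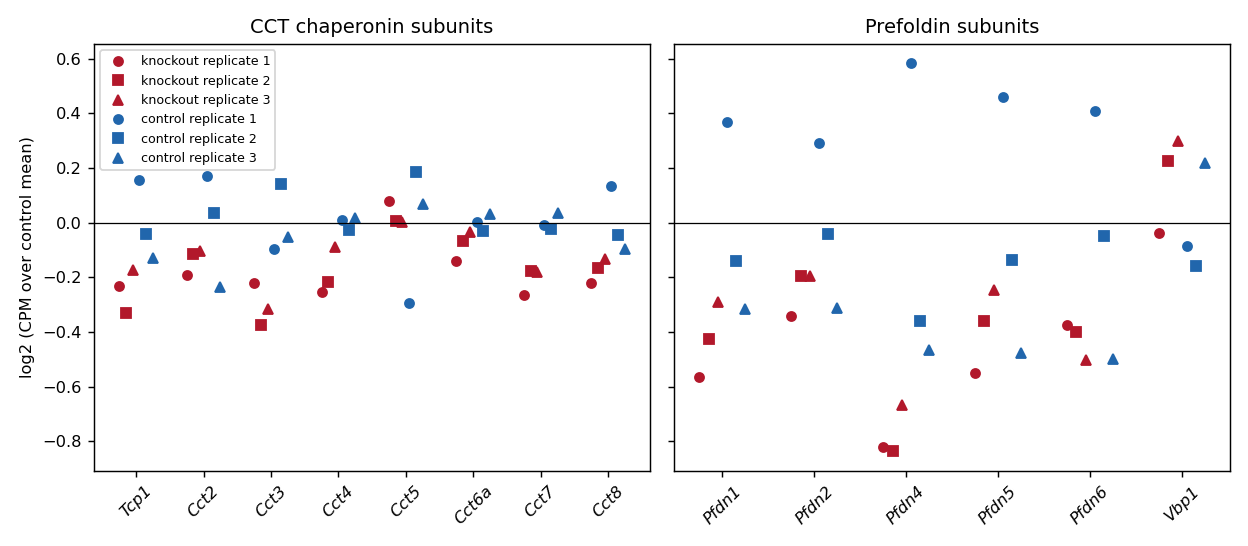
Log2 ratio of each library's CPM to the control mean, for the CCT subunits (left) and prefoldin subunits (right); red symbols are knockout and blue symbols control libraries, with a shape for each replicate number. CCT values lie in a narrow band with knockouts mostly below controls, while in prefoldin control replicate 1 (blue circles) is above all other libraries in every gene but Vbp1.

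**Figure D4:**
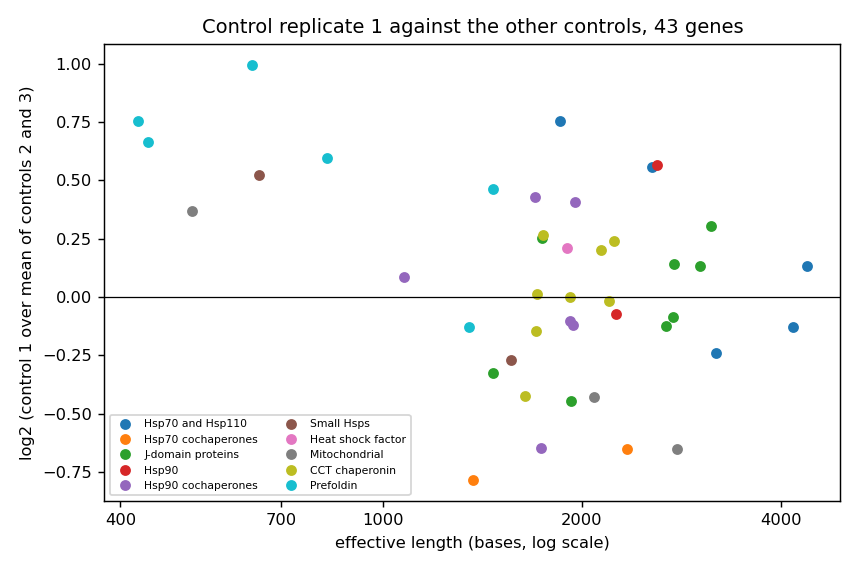
Log2 ratio of control replicate 1 to the mean of control replicates 2 and 3 against effective transcript length in bases (log axis), for the 43 genes of the set with a length estimate, coloured by class. All 6 genes under 1000 bases lie above 0, and the 37 longer ones lie on both sides of it.

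Among the 36 genes with a promoter sequence, fold changes were set beside the matches to the heat shock element. Of the 14 with at least a short form in the window, 7 had a negative fold change and 1 had all knockouts below all controls, Hsph1; their median was -0.052 (log2). Of the 22 without a match, 20 had a negative fold change and in 11 all knockouts were below all controls; their median was -0.23. Of all tested genes, 52.2% had a negative fold change and 11.9% had all knockouts below all controls. The 14 include Hspa1a and Hspa1b, whose reads were divided between them, and Hspd1 and Hspe1, which share 1 stretch. The 22 include every prefoldin gene searched, and Tcp1, Cct3, Cct6a, Cct7 and Cct8, so match and chaperone class partly coincide. Of the short genes, Hspb1 and Hspe1 are among the 14, and Pfdn4, Pfdn5 and Pfdn6 among the 22. These counts and medians are descriptions, and no test was made of the difference. They leave out Hspa8, Hsp90aa1, Hsp90ab1, Hsf1, St13, Cct4, Hspa9 and Pfdn1, which had no promoter sequence and were not searched. Among these, all knockouts were below all controls in Hspa8, Hsp90aa1, Hsp90ab1, Hsf1 and Cct4. They were above all controls in Hspa9, and the groups overlapped in St13 and Pfdn1.

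Other chaperone genes were looked at beside the set. Of 68 further genes listed as Hsp70, Hsp90, small heat shock protein, mitochondrial, heat shock factor, CCT and prefoldin partners, 67 were in the table and 64 were tested. In edgeR's test 0 of the 64 passed the adjusted threshold, against 1.49% of all tested genes, and 5 lower and 3 higher had an unadjusted p under 0.05 (7.81% and 4.69%), against 9.26% and 9.27% of all tested genes, which is below the background. DESeq2 called Uri1 and Bag4 higher and Tbcb, a tubulin-folding cofactor, lower, against 3.08% of all genes called higher and 2.18% lower; Tbcb was singled out after its values were seen. Bag4 and Uri1 were also called by edgeR with no filter on low counts and with the length trend removed, and without control replicate 3 edgeR called Bag4, Uri1, Clpp and Tbcb. The median log2 fold change of the 64 was -0.058, with 38 of 64 negative, against 52.2% of all tested genes. All knockouts were below all controls in 6 of the 64 and above them in 5, against 11.9% and 13.3% of all tested genes. The smallest p in each list belonged to Uri1, Bag4, Clpp, Hsf4, Ppid and Hspb6.

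Uri1, a prefoldin-like scaffold protein, had 40.0, 36.8 and 37.9 CPM in the knockout libraries, against 22.5, 23.4 and 29.1 CPM in the control libraries (log2 fold change 0.61 ± 0.14, SE; edgeR adjusted p = 0.0626). Bag4, an exchange factor of Hsp70, had 39.8, 35.4 and 34.3 CPM in the knockout libraries, against 17.2, 20.1 and 27.6 CPM in the control libraries (0.75 ± 0.18, SE; edgeR adjusted p = 0.0728). In both, every knockout was above every control. Hsf4, a relative of Hsf1, had a log2 fold change of -0.43 ± 0.18 (SE), with knockouts below all controls. Clpp, the mitochondrial matrix protease, at -0.46 ± 0.19, the Hsp90 immunophilin Ppid at -0.35 ± 0.17 and the small heat shock protein Hspb6 at -0.23 ± 0.19 (log2, SE) had overlapping groups. Without control replicate 1 these were at -0.27, -0.14 and -0.024, and Hsf4 at -0.26; without control replicate 3 Hspb6 was at -0.41 and Clpp, at -0.64, was called (edgeR adjusted p = 0.0442).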

How the data were processed

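Per the submitters' processing notes, HISAT2, Bowtie2 and RSEM 1.3.1 and the build GRCm38 were used; the sources used here give neither settings nor strand. The authors deposited estimated counts, FPKM and TPM per library, per the file headers, and their own DESeq2 log2 fold changes, p-values and q-values. Columns were matched to samples by group and number.

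Counts (4.70% to 5.12% not whole) were rounded, filtered with edgeR's filterByExpr and scaled with TMM factors. Genotype was tested in edgeR 4.0.16 (R 4.3.3; quasi-likelihood), with Benjamini-Hochberg adjustment at 0.05 over all 12173 genes. SE came from the F statistic, and effective length from counts and FPKM. At these totals, 3 counts, the limit a count of 0 allows, equal 0.161 to 0.193 CPM; this covers counting error only. Every pair of libraries differed by more than counting noise (lowest chi-square over degrees of freedom 18.9).

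The test was checked on simulated counts in which 200 genes were changed by 1 or 2 on the log2 scale. It recovered 78% and 100% of these, and 6.32% of its calls were false. Each gene was drawn on its own, without the length trends of the real libraries, so these shares may not carry over to them. Changes as small as those of the 44 genes, -0.87 to 0.67, were not simulated. Alternatives were other scaling, filters, tests (DESeq2 1.42.0, limma 3.58.1 with voom or on log2 FPKM), a block for replicate number, leaving out single libraries, and removal of length trends. The last of these with the block, and Hspa1a and Hspa1b summed, were added after seeing the data. Members and lists were chosen with earlier results of these data known. Values per library are given for called members and, in each class, those with the smallest p and the highest TPM; further genes were chosen after their values were seen. The deposited table gives Hspa1a, Hspa1b, Hspa4l and Pfdn6 a start on a separate scaffold, so their positions are not used here.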

Additional observations from a re-analysis of the deposited data

How the results depend on the processing

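Of the 44 chaperone genes edgeR called 1, Hsph1, and the count was 2 with no filter on low counts or with the length trend removed, 8 with DESeq2, and 0 with the replicate block, on log2(FPKM + 1) or log2(FPKM + 0.1), or with the length trend removed and the replicate block. Leaving out each library gave 0 to 7. Over all genes the 181 calls became 330 with no filter, 87 with the replicate block, 634 with DESeq2, 110 on log2(FPKM + 1) and 298 with the length trend removed, and 43 to 668 with a library left out; on log2(FPKM + 0.1) the split was 52 higher and 74 lower. Deviations of same-numbered libraries correlated over genes at -0.16, -0.079 and -0.076. These values gave no sign of pairing by replicate number but cannot exclude it. The count of genes with all knockouts below all controls, 17, ran from 16 to 26 with a library left out; it was 26 without control replicate 3, where the share of all genes was also higher, at 21.6%.

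Among class medians, CCT was -0.22 with upper-quartile factors and -0.23 on both FPKM scales, and J-domain proteins 0.017, -0.030 and -0.027. With a library left out CCT ran from -0.21 to -0.13, J-domain proteins from 0.025 to 0.13, Hsp70 and Hsp110 from -0.36 to -0.11, prefoldin from -0.56 to -0.12 and Hsp70 cochaperones from -0.27 to 0.056, against -0.070 with all. Signs turned for Cct5 (-0.012 with upper-quartile factors, -0.0095 and -0.0093 on the FPKM scales, -0.097 without control replicate 1), St13 (-0.12 without control replicate 1) and Hspe1 (0.0024 without control replicate 1, and 0.026 and 0.021 with the length trend removed, without and with the replicate block). They also turned for Hspa1b (0.072 without control replicate 1, 0.047 without knockout replicate 3), Hspa4l (0.0085 without knockout replicate 1), Cdc37 (-0.064) and Dnajc7 (0.036, both without control replicate 1). Without control replicate 2 St13 was 0.23, and without control replicate 3 Hspe1 was -0.25. None of these 7 genes was called in any fit. Hspb1 had the lowest value of the 44 with all libraries and Hsph1 under the replicate block, voom, both FPKM scales and the length trend removed. The cause was not tested. Depth limits the scarcest genes most: Pfdn4 rests on 54 to 123 counts per library and Hspa1a on 16.2 to 52.1.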
